A study of Homo sapiens with 20 samples.

Results

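The control arrays of MCF 10A cells are the reference against which both miRNA mimics of this study were read, and they hold the baseline expression of the cells. They were chosen by their titles alone and number 10 of the 20 arrays. The study asked which genes respond to miR-4728-3p, a miRNA encoded within the HER2 gene (ERBB2), and used miR-1, a muscle miRNA, as a comparison. MCF 10A cells were transfected with Lipofectamine 2000 and an oligonucleotide at 100 nM, the concentration given by the labels, and total RNA was hybridized to Illumina HumanHT-12 bead arrays. The 6 miR-4728-3p controls had been transfected with a non-targeting siRNA and were run on version 3 of the array. The 4 miR-1 controls had been transfected with a non-targeting control and were run, according to the methods, on version 4. All 10 arrays are of transfected cells, so none shows untreated cells. Array version, experiment, culture and control oligonucleotide change together between the sets and cannot be told apart. MCF 10A is 1 cell line, and the methods call the replicates biological without saying how the cultures were separated, so every SD and p-value below covers the spread between these arrays.

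MCF 10A is an immortalized, non-tumorigenic human breast epithelial line. Such cells in culture carry many features of basal, or myoepithelial-facing, breast epithelium: they make the keratins of basal layers and the laminins and integrins that fix epithelium to its basement membrane, and they can turn on genes of squamous differentiation. They grow in medium with epidermal growth factor, insulin, hydrocortisone and cholera toxin. According to the paper, they express the estrogen receptor ESR1 at very low levels. They have lost the part of chromosome 9p that holds the cell cycle inhibitors CDKN2A and CDKN2B. Luminal epithelial cells, the other main kind of breast epithelium, are marked by the keratins KRT8, KRT18 and KRT19, by GATA3 and, in part, by the estrogen and progesterone receptors.

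Levels are given as percentile ranks. Within each array the 39426 probes that both array versions hold were ranked by the authors' normalized intensity, with 100 for the brightest, and each gene is represented by its shared probe with the highest mean rank. A rank orders probes by brightness, which depends on the probe as well as on the amount of RNA, so the order of 2 genes is an order of signals and not of molecules. No detection p-values were used here. In their place, the background limit of an array was the 95th percentile of the ranks of 451 probes for olfactory receptors, genes of the nasal epithelium. It lay between the 59.2 and 63.7 percentile in miR-4728-3p controls and between the 56.3 and 58.7 percentile in miR-1 controls. The number of shared probes above it was 14340 to 16093 in miR-4728-3p controls and 16282 to 17239 in miR-1 controls. A stricter limit from tissue-specific genes gave medians of 8579 probes in miR-4728-3p controls and 10202 in miR-1 controls, so genes close to the limit are uncertain.

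The baseline of the cells was stable in its upper part and noisy below the limit. Across all shared probes, the Spearman correlation of ranks between 2 arrays was 0.764 to 0.816 within miR-4728-3p controls, 0.835 to 0.860 within miR-1 controls and 0.742 to 0.792 between the sets. Over the probes above the limit it was 0.964 to 0.982 within miR-4728-3p controls, 0.984 to 0.991 within miR-1 controls and 0.915 to 0.931 between the sets. These are correlations across probes, which are not replicates. Of 18290 named genes, 8116 (44.4%) were above the limit in all 10 control arrays, 4613 (25.2%) in none and 5561 (30.4%) in some. There were 213 genes with a mean percentile of 99 or more. A further split lay in the genes above the limit in every array of 1 set and in no array of the other, of which 105 were so in miR-4728-3p controls and 107 in miR-1 controls.

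Many of the brightest signals came from probes without a gene name, which are not described further: 13 of the 25 brightest probes and 45 of the 100 brightest. Of the 100, 55 were named and 30 of these were for ribosomal proteins. The first gene in the order was EEF1A1, the elongation factor that brings tRNAs to the ribosome, whose percentile was 99.98 to 100.0 in miR-4728-3p controls and 99.99 to 100.0 in miR-1 controls. MT2A, a metallothionein that binds zinc and copper, was second, at 99.94 to 100.0 in miR-4728-3p controls and 99.98 to 99.99 in miR-1 controls. The largest group among the 25 brightest genes encodes ribosomal proteins (RPL41, RPS29, RPS12, RPS2, RPS16, RPL6, RPLP2, RPS25, RPLP1, RPS27, RPL18, RPS10 and RPS14). The others included TPT1, a growth-related protein, TMSB10, ACTG1, PFN1 and TUBA1B of the cytoskeleton, and S100A10 and ANXA2, whose proteins form a complex beneath the plasma membrane. S100A10 had percentiles of 99.95, 99.93, 99.88, 99.89, 99.95 and 99.91 in miR-4728-3p controls, against 99.95, 99.84, 99.87 and 99.78 in miR-1 controls, and the sets overlapped.

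Some bright signals rested on 1 probe of several. LAIR1, an inhibitory receptor of immune cells, stood among the 25 brightest genes with a mean percentile of 99.9, while its other shared probe had a mean of 51.6 and was above the limit in 5 arrays. SLC7A5P2, a pseudogene, had 1 probe at 99.9 and others at 41.4 and 39.0. CLUAP1, a gene of primary cilia, had 1 probe at 99.8 and others at 66.0 to 81.9. These genes are therefore bright by 1 probe, and the transcript that this probe detected was not tested. Across the 6073 genes with several shared probes, 822 (13.5%) had probes more than 50 percentile points apart. The widest gap was that of RCN2, which encodes a calcium-binding protein of the endoplasmic reticulum, with probes at 96.4 and 4.77. GNAS, POMP, ACOT7 and GTF3C6 followed.

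Ribosomal, translation, respiratory and glycolytic genes were high as lists. All 26 measured proteins of the small ribosomal subunit and 42 of 43 of the large one were above the limit in all 10 arrays, with median percentiles of 99.7 and 99.6, against a median of 60.4 over all genes. The exception was RPL10, at 36.1 in miR-4728-3p controls and 23.4 in miR-1 controls. Ribosomal proteins have many processed copies in the genome, and a probe may detect more than 1 of them. All 32 translation factors (median 98.1), 30 of 31 members of the respiratory chain (99), 17 of 18 glycolytic enzymes (97.4) and 33 of 34 genes of the cytoskeleton (97.8) were above the limit in every control array. Of the 213 genes at the 99 percentile or more, 30 were of the large and 22 of the small subunit, 15 of the respiratory chain, 9 translation factors and 4 glycolytic. The glycolytic genes were led by ENO1, GAPDH and LDHA, and the dim one was ENO2, the neuronal enolase. GAPDH had percentiles of 99.70 to 99.74 in miR-4728-3p controls and 99.66 to 99.73 in miR-1 controls. Among the reference genes often used for normalization, ACTB was at 99.8 in miR-4728-3p controls and 99.7 in miR-1 controls, and PPIA, at 81.5 in miR-4728-3p controls and 82.8 in miR-1 controls, was the dimmest.

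**Figure D1:**
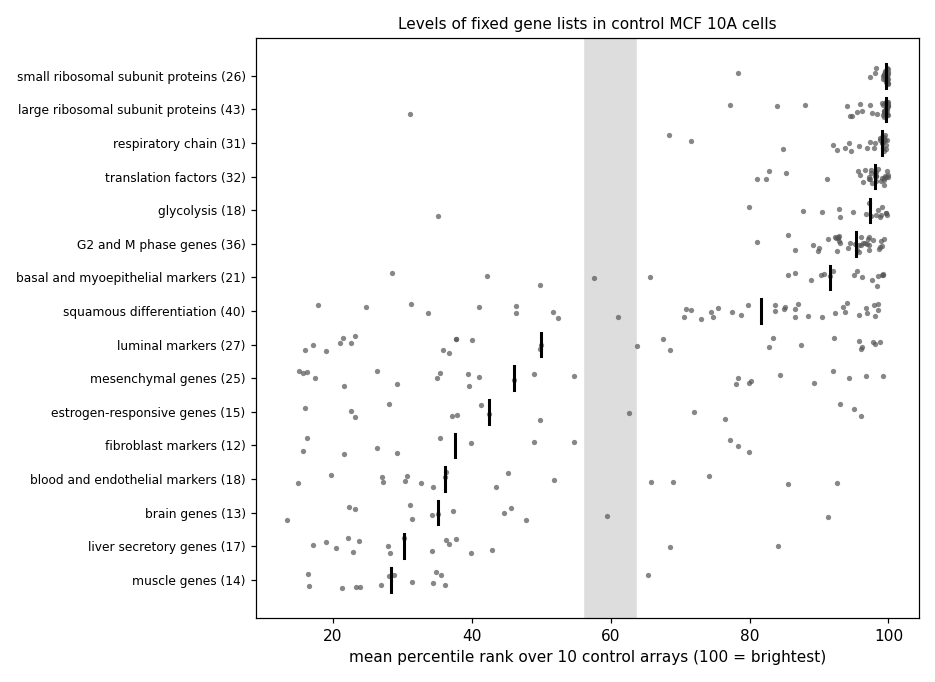
Mean percentile rank over the 10 control arrays (horizontal axis, 100 = brightest) of each measured member of 16 gene lists, with the number of members in brackets. Each point is a gene, the black bar is the median of the list, and the grey band spans the background limits of the 10 arrays (56.3 to 63.7). Ribosomal, respiratory and translation genes lie near 100, while the medians of the fibroblast, blood, brain, liver and muscle lists lie below the band.

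Genes of cell division were high. All 36 genes of the G2 and M phases were above the limit in all 10 arrays, with a median percentile of 95.3, and so were 37 of 41 genes of DNA replication and S phase (91.3). Among cyclins and their partners, MYC, a transcription factor whose locus is gained in this line, had percentiles of 98.10 to 98.47 in miR-4728-3p controls and 98.19 to 98.44 in miR-1 controls, and the sets overlapped. CCND3, CDKN1A and CDK4 had mean percentiles above 96 in both sets. The inhibitor CDKN2A, which restrains CDK4 and CDK6, was above the limit in no array. Its percentiles were 37.70, 8.23, 52.87, 40.94, 57.48 and 39.25 in miR-4728-3p controls, against 32.97, 13.87, 35.41 and 39.99 in miR-1 controls. MTAP, a methionine salvage enzyme beside CDKN2A, was also below the limit in every array, at 4.32 to 33.14 in miR-4728-3p controls and 35.66 to 46.25 in miR-1 controls. CDKN2B, the neighbouring inhibitor, had percentiles of 66.45, 56.28, 63.33, 65.02, 56.36 and 68.17 in miR-4728-3p controls, of which 4 were above the limit, against 45.72, 27.54, 29.11 and 43.58 in miR-1 controls, none of which were. Values this close to the limit were not tested.

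Basal markers were bright. Of 21 measured basal and myoepithelial markers, 16 (76.2%) were above the limit in all 10 arrays, with a median percentile of 91.6. KRT5, the type II keratin of basal cells, had percentiles of 98.19 to 98.74 in miR-4728-3p controls and 98.14 to 98.42 in miR-1 controls. Its partner KRT14 had 97.31 to 97.94 in miR-4728-3p controls and 97.51 to 97.87 in miR-1 controls, and for both keratins the sets overlapped. VIM, CAV1, S100A2, CD44 and CAV2 were also among the brightest of the list, and SNAI2, a transcription factor of basal breast cells, had a mean percentile of 92.1 in miR-4728-3p controls and 91.8 in miR-1 controls. The other members of the list ranged widely. ACTA2, smooth muscle actin, was above the limit in all arrays at 92.8 in miR-4728-3p controls and 86.5 in miR-1 controls, while CNN1 (calponin) was above it in no array, MYLK in 1, NGFR in 3 and OXTR, the oxytocin receptor, in 7.

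The luminal markers ranged from bright to background. Of 27 measured, 11 (40.7%, against 44.4% of all genes) were above the limit in all 10 arrays and 8 in none, and their median percentile was 49.96. KRT18, a keratin of simple epithelia, had percentiles of 98.38 to 98.90 in miR-4728-3p controls and 98.54 to 98.95 in miR-1 controls. CD24, KRT7, MUC1, XBP1 and EPCAM followed. KRT19, another keratin of simple epithelia, was above the limit in no array, at 4.71 to 41.31 in miR-4728-3p controls and 18.75 to 32.78 in miR-1 controls. GATA3, a transcription factor of luminal cells, was above it in 5 miR-4728-3p control arrays and 3 miR-1 control arrays. Its percentiles were 69.28, 71.04, 71.76, 70.40, 52.07 and 62.02 in miR-4728-3p controls, against 63.62, 59.82, 68.08 and 49.84 in miR-1 controls, which are values about the limit in both sets. The list ended with ELF5, SPDEF and TFF1, all below the limit in every array.

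ESR1, the estrogen receptor on which the study turned, was at background on these arrays, and the paper calls it very low in MCF 10A. Its percentiles were 3.60, 7.32, 68.05, 37.95, 59.76 and 53.48 in miR-4728-3p controls, against 30.11, 49.36, 16.87 and 50.73 in miR-1 controls. The values were scattered over the lower part of the order, and 1 of 10 was above the limit. PGR, the progesterone receptor and a target of ESR1, was above the limit in no array, at 3.50 to 57.32 in miR-4728-3p controls and 21.71 to 42.33 in miR-1 controls. Of 15 estrogen-responsive genes, 5 (33.3%, against 44.4% of all genes) were above the limit in all 10 arrays: XBP1, CA12, STC2, SIAH2 and TPBG. TFF1, TFF3, GREB1 and PDZK1 were above it in none. Other nuclear receptors were measurable. RXRA, the common partner of many of them, led the list at 94.5 in miR-4728-3p controls and 91.9 in miR-1 controls, followed by PPARG and RXRB, and 9 of 23 were above the limit in all arrays. NR3C1, the glucocorticoid receptor, was at 75.7 in miR-4728-3p controls and 77.5 in miR-1 controls. Of 16 glucocorticoid-responsive genes, 15 were above the limit in all arrays, with a median percentile of 94.1, and MT2A, MT1X, DUSP1, NFKBIA and FKBP5 were the brightest.

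The receptors of the epidermal growth factor family were present without being among the bright genes. EGFR had percentiles of 85.28 to 89.05 in miR-4728-3p controls and 81.94 to 83.60 in miR-1 controls. ERBB2, the host gene of miR-4728, had 87.60, 87.09, 85.73, 86.96, 87.34 and 87.24 in miR-4728-3p controls, against 83.37, 80.96, 82.76 and 81.03 in miR-1 controls, and all miR-4728-3p controls were higher. Such a separation was common, since the sets did not overlap in 40.9% of the genes tested below. ERBB3 was near the limit at 66.8 in miR-4728-3p controls and 68.4 in miR-1 controls, and ERBB4 was above it in 3 arrays. Of the ligands, TGFA and HBEGF were above the limit in all 10 arrays, and EGF, which the culture medium supplies, in 2. USP1, a deubiquitinating enzyme that the study followed as a target of miR-4728-3p, was above the limit in every control array at 92.0 in miR-4728-3p controls and 94.0 in miR-1 controls.

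**Figure D2:**
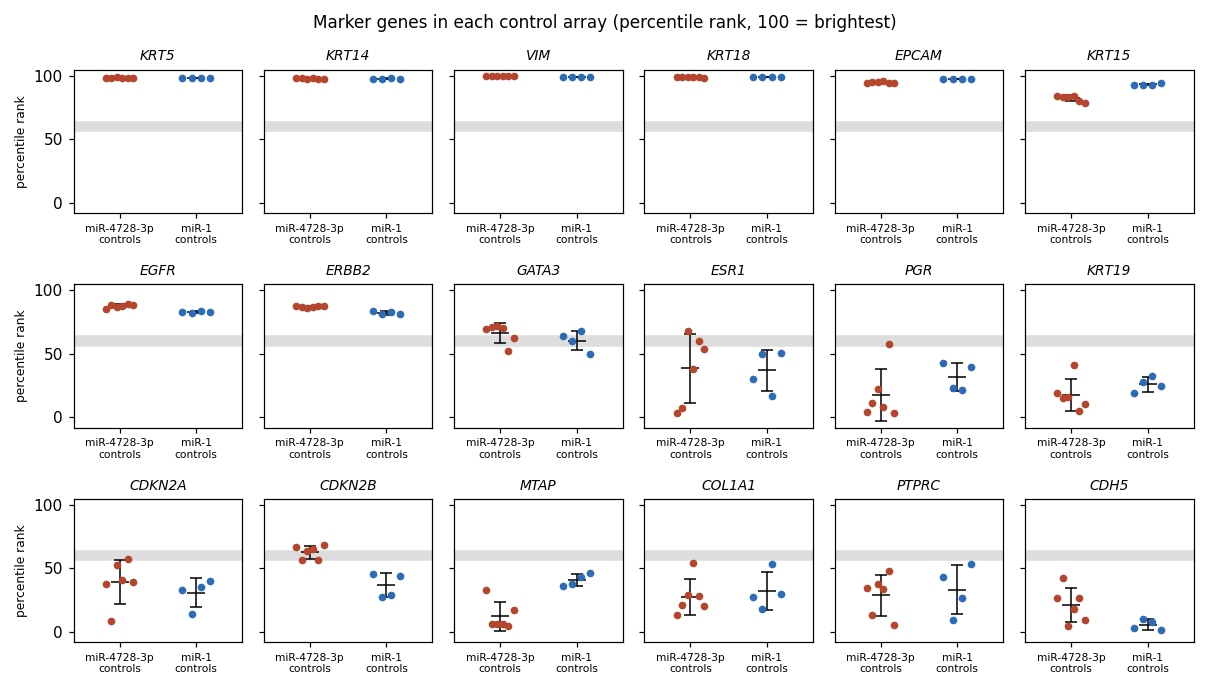
Percentile rank (vertical axis, 100 = brightest) of 18 genes in each of the 6 miR-4728-3p controls (left, red) and 4 miR-1 controls (right, blue). Points are arrays, the bar and whiskers are the mean and SD of a set, and the grey band spans the background limits (56.3 to 63.7). The basal keratins KRT5 and KRT14 lie above 97 in every array, and ESR1, PGR and KRT19 lie mostly below the band.

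Squamous genes were widely on in both sets. Of 40 measured, 29 (72.5%) were above the limit in all 10 arrays, with a median percentile of 81.7. S100A9, KRT6C and S100A8, which mark activated keratinocytes, had mean percentiles above 97 in both sets, as did SERPINB5 (maspin). Members of the cornified layers were spread over the order. SPRR1A, a precursor of the cornified envelope, was at 95.1 in miR-4728-3p controls and 88.1 in miR-1 controls, and CNFN (cornifelin) at 77.2 in miR-4728-3p controls and 72.6 in miR-1 controls. IVL (involucrin), SERPINB4 and PKP1 were above the limit in no array and KRT1 in 1. Of the S100 proteins in general, 13 of 15 were above the limit in all arrays, and the exceptions were S100A12 and S100B. The metallothioneins were either bright or off. MT2A, MT1E, MT1X, MT1G and MT1F were above the limit in all arrays, while MT1H, MT3, MT4 and MT1M were in none and MT1B in 1.

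Integrin beta 1 and laminin chains led the adhesion and matrix genes. The integrins ITGB1, ITGB5, ITGA3, ITGA6, ITGB4, ITGAV, ITGA5, ITGB2 and ITGA2 were above the limit in all 10 arrays, which is 9 of 22. ITGB2, the beta chain of leukocyte integrins, was at 87.8 in miR-4728-3p controls and 84.1 in miR-1 controls, while its leukocyte partner ITGAL and the platelet integrin ITGB3 were above the limit in no array. Among 20 matrix genes the laminins LAMA5, LAMC1 and LAMB3 were the brightest, and FN1, fibronectin, was above the limit in 1 array. Junction genes were led by CTNNA1, CDH3 and CDH1. OCLN (occludin) was above the limit in 1 array and CLDN4 in none.

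Mesenchymal genes were present in part. VIM, S100A4, TAGLN, SNAI2, CDH2, TWIST1 and TWIST2 were above the limit in all 10 arrays, and ZEB1, SNAI1, COL1A1 and COL3A1 in none. COL1A1, the main collagen chain of fibroblasts, had percentiles of 13.43 to 54.06 in miR-4728-3p controls and 18.15 to 53.13 in miR-1 controls. Of 12 fibroblast markers, 3 (25.0%) were above the limit in all arrays: DCN, FAP and MFAP5. The medians of that list ran from 34.7 to 51.8 over the miR-4728-3p control arrays and from 33.7 to 35.9 over the miR-1 control arrays. COL1A1 and COL3A1 were above the limit in no array and COL1A2 was in 1.

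Most markers of other tissues were at background, with some exceptions. Of 18 markers of blood and endothelium, 3 (16.7%) were above the limit in all arrays. They were CD14, CD68 and CSF1R, genes of myeloid cells, and CD14 had percentiles of 90.93 to 94.10 in miR-4728-3p controls and 91.38 to 93.06 in miR-1 controls. PTPRC (CD45), which all leukocytes carry, was above the limit in no array, at 5.65 to 47.53 in miR-4728-3p controls and 9.10 to 53.12 in miR-1 controls, and neither were CD3D, CD3E, VWF and CDH5. The list medians ran from 34.9 to 50.9 over the miR-4728-3p control arrays and from 41.6 to 51.0 over the miR-1 control arrays. Of 7 adipocyte markers LEP (leptin) alone was above the limit in all arrays, at 74.3 in miR-4728-3p controls and 80.6 in miR-1 controls, while ADIPOQ and PLIN1 were in none. Of 14 muscle genes TNNT1 alone was above the limit in all arrays, and it was close to the limit at a mean percentile of 65.4. For the liver list this was 1 of 17 (SERPINA1, a protease inhibitor, at 85.1 in miR-4728-3p controls and 82.6 in miR-1 controls), for the pancreas and gut list 0 of 14 and for the brain list 1 of 13 (MBP, myelin basic protein, at 92.9 in miR-4728-3p controls and 88.8 in miR-1 controls).

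Cytokine, stress and metabolic genes completed the picture. IL18, a cytokine stored by keratinocytes, was the brightest of 23 chemokines and cytokines, at 99.26 to 99.45 in miR-4728-3p controls and 99.11 to 99.30 in miR-1 controls. CXCL8, IL1A, CCL20, CXCL1 and CXCL16 followed, and TNF was above the limit in 1 array. Of 26 interferon-response genes 17 (65.4%) were above the limit in all arrays, led by IFITM2 and IFITM3, and MX2 in none. Of 14 sensors of double-stranded RNA this was 5, led by ADAR and EIF2AK2 (PKR), while DHX58 and TLR7 were dim. Of 18 genes of the miRNA pathway it was 12. AGO2, which carries miRNAs to their targets, was at 93.5 in miR-4728-3p controls and 88.1 in miR-1 controls, and AGO4 and LIN28A were above the limit in no array. Cholesterol synthesis (18 of 19, median 93.5), serine and one-carbon synthesis (9 of 10, 93.6), heat shock proteins (18 of 20, 97.1) and antioxidant enzymes (20 of 26, 92.5) had most members above the limit in all arrays. TXN and GSTP1 were at 99.7 or more in both sets, while GSTM3 and AKR1C1 were above the limit in no array.

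Promoter sequences were set beside these levels as a description. RefSeq promoters (GRCh38.p14, 250 bases before to 50 after each start) were taken for the 10666 measured genes with 1 listed promoter. TATAAA, the TATA box, was counted from position -45 to position -16 on the strand of the gene. The word CCAAT, the ETS word CCGGAAG, the Sp1 word GGGCGG and the AP-1 word TGACTCA were counted anywhere before the start on either strand. The word CTTTC and also CTTTT and also CTTCC were counted from position -5 to position 12 on the strand of the gene, where mRNAs of the translation machinery often have a pyrimidine tract. No word is contained in another or in its reverse complement, apart from CTTCC, which is part of the reverse complement of CCGGAAG. Of 51 ribosomal protein genes, 41 (80.4%) had a pyrimidine word at the start, against 9.41% of all genes. Among 24 mitotic genes, 21 (87.5%) had CCAAT, against 35.9% of all genes. TATAAA was found in 7 of 25 squamous genes (28.0%) and in 4 of 5 metallothionein genes, against 4.39% of all genes, and TGACTCA in 7 of 25 squamous genes (28.0%), against 3.18%. Genes above the limit in all 10 arrays held CCGGAAG in 20.1% of promoters and GGGCGG in 71.9%, against 4.37% and 38.0% for the genes above it in none. TATAAA went the other way, with 1.92% and 7.75%.

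The following stretches of 30 bases before the start show these words in capitals, as examples from the bright and the cycling genes, 5′ to 3′ on the strand of the gene. A match is a run of letters and does not show that a factor binds there.
MT2A, chr16:56608543-56608572, plus strand: gctctttctagcTATAAAcactgcttgccg
MT1X, chr16:56682428-56682457, plus strand: ctcttcccggacTATAAAgagagccgccgg
CCNB1, chr5:69167083-69167112, plus strand: gccacgaacaggCCAATaaggagggagcag
CDC20, chr1:43358914-43358943, plus strand: attttgaaggagCCAATaggcgctcggagc
TOP2A, chr17:40417932-40417961, minus strand: agcgagtcagggATTGGctggtctgcttcg
The TATA words of the metallothioneins began at -29 and -30, and the CCAAT words of the mitotic genes nearest to the start began at -55, -55 and -53. In TOP2A, which encodes DNA topoisomerase II alpha, the word lies on the opposite strand and reads ATTGG.

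The control sets differed in rank at many genes by a little and at few genes by much. To compare them, the rank of each probe was read on 1 common distribution of log2 values, so a difference of 1 stands for a doubling at matched rank. The difference is always miR-4728-3p controls minus miR-1 controls. Of 9228 genes tested with limma, 4987 (54.0%) passed an adjusted p of 0.05, and 3776 (40.9%) had sets that did not overlap, but 77.9% differed by less than 0.5. With a minimum difference of 1, 146 genes (1.58%) were higher and 190 genes (2.06%) were lower in miR-4728-3p controls, and in all of these the sets did not overlap. The median SD of a gene was 0.149 among miR-4728-3p controls and 0.0984 among miR-1 controls. A doubling was thus large against the median spread of either set. The spread differed by gene, with largest SDs of 0.588 among miR-4728-3p controls and 0.702 among miR-1 controls. Array version, experiment, culture and oligonucleotide remained joined.

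The mimic arrays, which were not used to choose these genes, gave differences of the same direction between the experiments. Between the 6 miR-4728-3p mimic arrays and the 4 miR-1 mimic arrays, ranked apart from the controls, 146 of 146 genes called higher and 187 of 190 called lower had the same sign, and 78 and 149 of them differed by at least 1. Without genes that responded to a mimic in either experiment this was 87 of 87 and 161 of 161. That result was largely fixed in advance. Such genes were kept because no difference between mimic arrays and their own controls was detected. The mimic arrays share the array version and the experiment with their controls, and they also carry different mimics. The share with the same sign over all tested genes is not given here, so these counts do not set the called genes apart. A second probe gave a looser match. Of 35 genes called higher with another tested probe, 28 (80.0%) had a difference of the same direction in it and 5 were also called, and of 53 called lower these were 39 (73.6%) and 7. Over all 2308 tested genes with another tested probe, the direction was shared by 66.9%.

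**Figure D3:**
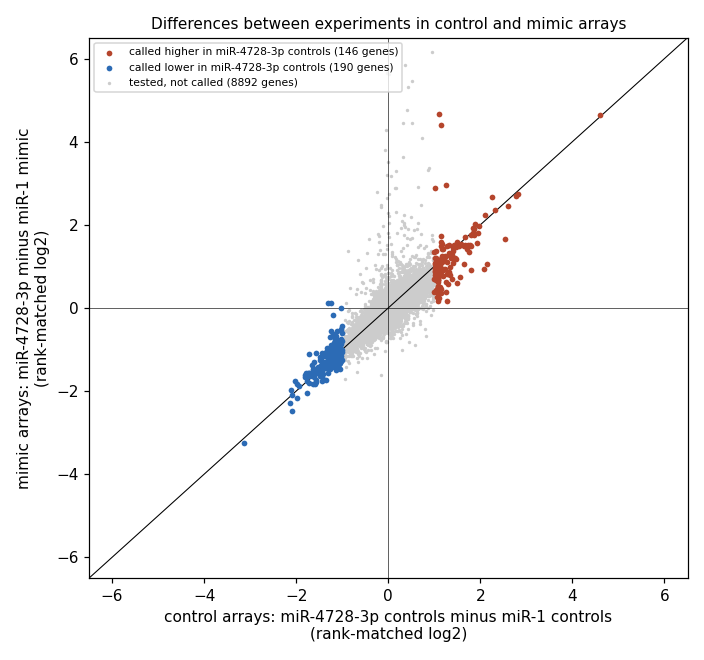
Difference between the experiments (rank-matched log2 value) in control arrays, miR-4728-3p controls minus miR-1 controls (horizontal axis), and in mimic arrays, miR-4728-3p mimic minus miR-1 mimic (vertical axis), for each tested gene. Red points are the 146 genes called higher and blue points the 190 called lower in miR-4728-3p controls, grey points are the other tested genes, and the diagonal marks equal differences. Nearly all called genes lie on the same side of 0 on both axes.

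The gene with the largest difference was EXOG, which encodes a mitochondrial endonuclease. Its rank-matched log2 values were 12.09, 11.97, 12.11, 12.08, 11.93 and 11.74 in miR-4728-3p controls, against 7.39, 7.56, 7.21 and 7.40 in miR-1 controls, a difference of 4.60 (SE 0.0914, adjusted p = 2.862e-18). Its only shared probe was at the 98.1 percentile in miR-4728-3p controls and at 71.8 in miR-1 controls. PRKCQ, protein kinase C theta of T cells and muscle, differed by 2.82, with 3 of 4 miR-1 controls above the limit. HTR2A, the serotonin 2A receptor, had percentiles of 89.22 to 91.55 in miR-4728-3p controls, and 26.87, 44.78, 5.32 and 7.13 in miR-1 controls, where no array was above the limit. For such a gene the miR-1 controls give only a bound, taken as the signal at the limit of each array, and HTR2A was at least 5.71-fold higher in miR-4728-3p controls. KRTDAP, a protein of differentiating keratinocytes, was at least 3.51-fold higher and MUSK, a receptor kinase of the neuromuscular junction, at least 3.06-fold higher by the same bound. SIRPG (2.60), GSTCD (2.31) and SCN3A (2.11) were above the limit in 1 of 4 miR-1 controls each, so these differences are against values mostly at background. In GSTCD the other tested probe differed by -0.11. Of the 146 genes called higher, 10 were above the limit in no miR-1 control array and 84 had 1 shared probe. These 10 passed the filter for testing, a mean rank over the 10 control arrays above the mean limit, only through the miR-4728-3p controls. Their calls are therefore no separate evidence. A gene bright only in the 4 miR-1 controls passes that filter less easily. Only 1 gene called lower was above the limit in no miR-4728-3p control, so these counts do not compare the directions.

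Other genes among the 15 largest increases were above the limit in all arrays of both sets. CCN2, connective tissue growth factor, had log2 values of 10.27, 10.35, 10.09, 10.08, 10.35 and 10.35 in miR-4728-3p controls, against 7.78, 7.81, 7.59 and 7.64 in miR-1 controls. It differed by 2.54 (SE 0.0868, adjusted p = 2.301e-14) and its other probe by 2.57. COL8A1, a short-chain collagen, differed by 2.25, with 1.01 at its second probe. PMEPA1, a target and inhibitor of TGF-beta signalling, differed by 2.08, with 1.28 at its second probe. THBS1, thrombospondin, had log2 values of 9.77 to 10.51 in miR-4728-3p controls and 8.19 to 8.57 in miR-1 controls, a difference of 1.87. DCN, a small proteoglycan of connective tissue, had 8.96 to 9.29 in miR-4728-3p controls and 7.05 to 7.26 in miR-1 controls. Its difference of 1.94 stood beside fibroblast list medians of 34.7 to 51.8 in miR-4728-3p controls and 33.7 to 35.9 in miR-1 controls, with COL1A1 and COL3A1 at background in both sets. By mean percentile over a set, the median of that list was 31.0 in miR-4728-3p controls and 32.7 in miR-1 controls. On the same list POSTN (periostin) and PDGFRA, a growth factor receptor of fibroblasts, were above the limit in all 6 miR-4728-3p controls and in no miR-1 control. Their means were 68.7 and 67.8 in miR-4728-3p controls and 33.5 and 20.5 in miR-1 controls. Over all 18290 genes this pattern was found in 105 (0.574%) and the reverse pattern in 107 (0.585%). The part of POSTN and PDGFRA in the difference was not tested.

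By list, 37 of the 146 genes called higher (1.58% of tested genes) and 29 of the 190 called lower (2.06%) belonged to a list. So did 944 of all 18290 measured genes, but only 9228 of the measured genes were tested, so the shares are not like for like. The lists were also chosen with earlier results of these data known, so these counts are no evidence about the called genes. Of 17 tested basal genes 3 were higher, LAMB3 (1.64, with 0.07 at its other probe), ACTA2 (1.15) and ITGB4 (1.03), and 1, KRT15, was lower. The integrins ITGA5 (1.42) and ITGB5 (1.17) and the actin crosslinker ACTN1 (1.13) were higher as well. Of 31 tested squamous genes 4 were higher, against 1.58% of all tested genes, and none lower. They were SPRR3 (1.87), S100A7 (1.58), SPRR1A (1.53) and PI3 (1.09), and counts this small say little about a list. SPRR3, a precursor of the cornified envelope, had log2 values of 9.31, 8.89, 9.12, 8.95, 8.89 and 9.27 in miR-4728-3p controls, against 7.09, 7.36, 7.11 and 7.25 in miR-1 controls. Of the 31 tested squamous genes the median difference was 0.26, against 0.04 over all tested genes, and the list medians by array were 81.2 to 85.2 in miR-4728-3p controls and 76.9 to 78.2 in miR-1 controls.

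Stress, redox and cell cycle genes were also among the higher ones. HSPA1A, the inducible heat shock protein, had 12.33, 12.07, 11.90, 12.15, 12.17 and 12.10 in miR-4728-3p controls, against 10.20, 10.40, 9.69 and 9.65 in miR-1 controls, a difference of 2.14, and its near-identical copy HSPA1B differed by 1.5. The aldo-keto reductases AKR1C2 (1.93) and AKR1C3 (1.32), which are close in sequence, and TXNRD1 (1.32), thioredoxin reductase, were higher. AKR1C2 was bright at 1 probe, and its other shared probes had mean percentiles of 17.1 to 40.5. CCND1, cyclin D1, had 12.43, 12.44, 12.27, 12.12, 12.10 and 12.08 in miR-4728-3p controls, against 10.47, 10.56, 10.36 and 10.16 in miR-1 controls, a difference of 1.85. Its partner CDK6 differed by 1.31 and CCNE1 by 1.13. CXCL8 (interleukin 8) was higher by 1.80, the adaptor TICAM1 by 1.36 (0.12 at its other probe) and the nucleic acid sensor ZBP1 by 1.31. The interferon-induced IFI6 was higher by 1.14 (0.33 at its other probe) and AGO2 by 1.06. ZBP1 had percentiles of 80.29 to 83.12 in miR-4728-3p controls and 32.22 to 62.54 in miR-1 controls, where 2 arrays were above the limit. Of the tested genes, 1 of 20 on the interferon list and 2 of 10 on the list of double-stranded RNA sensors were called higher, against 1.58% of all tested genes, and counts this small say little about the lists. The median difference over the 20 tested interferon genes was 0.24, against 0.04 over all tested genes. MX1 and OAS2, both interferon-induced, were too dim on average to be tested. MX1 had percentiles of 72.23 to 87.06 in miR-4728-3p controls and 2.78 to 44.67 in miR-1 controls, and OAS2 had 68.55 to 77.96 in miR-4728-3p controls and 9.86 to 44.62 in miR-1 controls. Over all 18290 genes, 105 were likewise above the limit in every miR-4728-3p control and no miR-1 control, and 107 showed the reverse. FGA, a fibrinogen chain of the liver list, was higher by 1.08, with percentiles of 78.99 to 80.56 in miR-4728-3p controls and 30.11 to 65.56 in miR-1 controls.

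The largest decrease was that of RPL7A, a protein of the large ribosomal subunit. It had log2 values of 9.45, 9.66, 9.98, 9.77, 9.89 and 9.45 in miR-4728-3p controls, against 13.04, 12.80, 12.53 and 12.98 in miR-1 controls, a difference of -3.14 (SE 0.116, adjusted p = 7.331e-14). RPL7 differed by -2.09, with 9.72 to 10.93 in miR-4728-3p controls and 11.89 to 12.56 in miR-1 controls. RPL31 (-1.42), RPS24 (-1.39, with -0.62 at its other probe), RPL13A (-1.31), RPL23 (-1.11) and RPL13 (-1.11, with -0.17 at its other probe) were also lower. That makes 6 of 42 tested proteins of the large subunit and 1 of 26 of the small one, with none higher. Over all tested genes 2.06% were called lower, and 1 of 26 is close to that share. The median difference was -0.12 over the large and -0.09 over the small subunit, against 0.04 over all tested genes. UQCRB of the respiratory chain (-1.58, with -0.41 at its other probe) and UQCRBP1, its processed copy (-2.11), were both lower. Their probes may not tell the copies apart.

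Single genes of several lists were lower as well. ANXA3, an annexin, had log2 values of 9.21 to 9.59 in miR-4728-3p controls and 11.29 to 11.70 in miR-1 controls, a difference of -2.10. DCAF13, a factor of ribosome assembly, differed by -2.13. PERP, a desmosomal membrane protein, differed by -1.99 and the tetraspanin CD63 by -1.81. CD63 had 8.93, 9.23, 9.05, 8.97, 8.51 and 8.89 in miR-4728-3p controls, against 10.72, 10.74, 10.72 and 10.77 in miR-1 controls. KRT15, a basal keratin, had 8.48, 8.37, 8.43, 8.55, 8.09 and 7.91 in miR-4728-3p controls, against 10.02, 9.95, 10.04 and 10.29 in miR-1 controls, a difference of -1.77. EPCAM was lower at both of its probes, by -1.07 and -2.32. The claudin CLDN7 (-1.18), the connexin GJB5 (-1.45) and S100A14 (-1.14) were lower too, while KRT7 was higher by 1.07. Of 36 mitotic genes 4 were lower, against 2.06% of all tested genes, and none higher, with a median difference of -0.08 over the list: DLGAP5 (-1.35), TOP2A (-1.10), TTK (-1.09) and BUB1B (-1.01). TOP2A had 10.28 to 10.80 in miR-4728-3p controls and 11.49 to 11.72 in miR-1 controls.

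**Figure D4:**
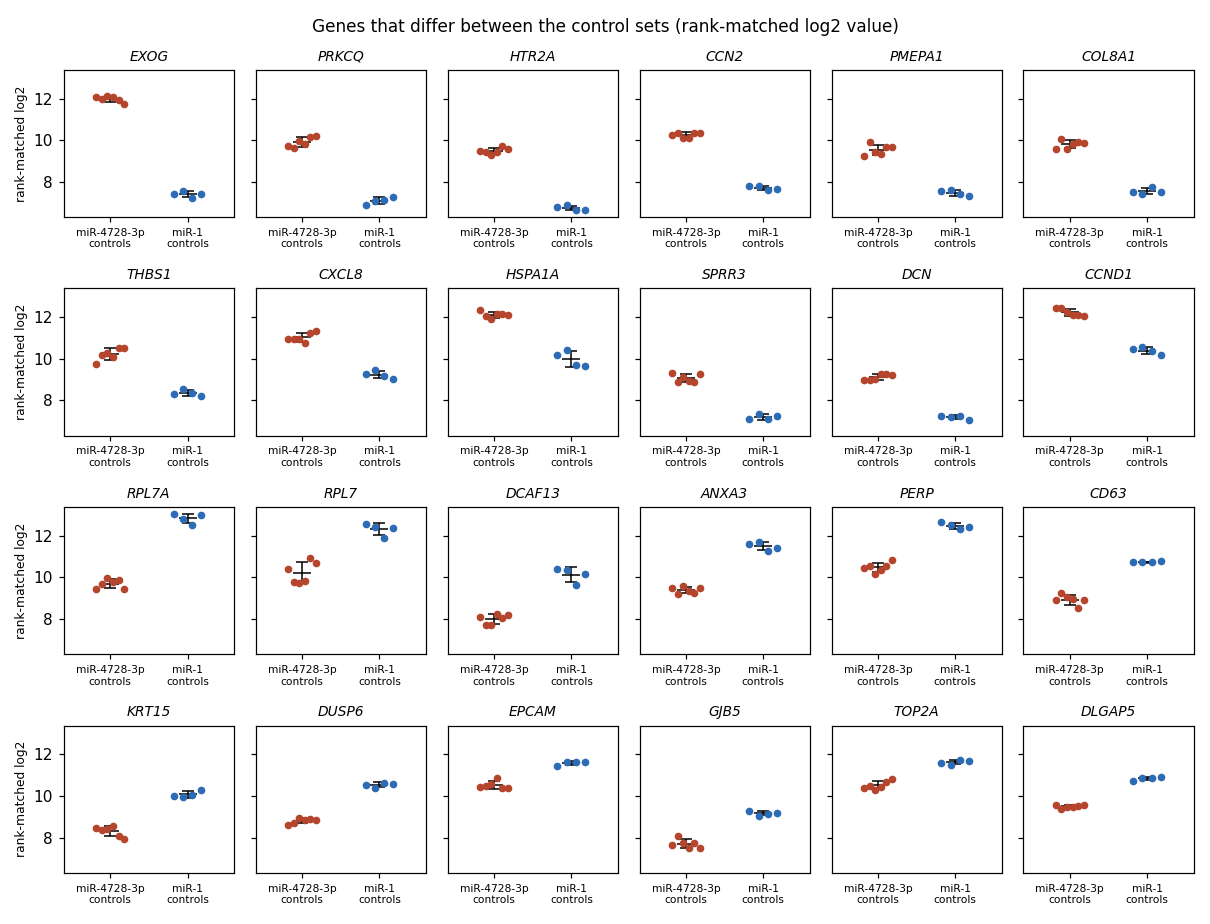
Rank-matched log2 value (vertical axis) of 24 genes in each of the 6 miR-4728-3p controls (left, red) and 4 miR-1 controls (right, blue). Points are arrays, and the bar and whiskers are the mean and SD of a set. In every panel the sets do not overlap, and the largest gap is that of EXOG (4.60).

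Metabolic and signalling genes were lower in smaller numbers. At its brightest probe DUSP6, the phosphatase that turns off ERK, had log2 values of 8.63 to 8.93 in miR-4728-3p controls and 10.38 to 10.64 in miR-1 controls, a difference of -1.73. Its other tested probe differed by 0.11 (adjusted p = 0.432), so its direction depends on the probe. SPRY4, another inhibitor of the same pathway, went the other way, by 1.17. PSAT1 (-1.33) and PSPH (-1.03) of serine synthesis were lower, as were ASNS (-1.20) and TRIB3 (-1.02), which respond to amino acid shortage through ATF4. So were FDPS of cholesterol synthesis (-1.26) and TSC22D3, a glucocorticoid-induced leucine zipper protein (-1.32, with -0.33 and -0.18 at its other tested probes). In the same lists HSPA5, an endoplasmic reticulum chaperone, was higher by 1.04 and TNFAIP3, an inhibitor of NF-kappaB, by 1.03. ZMAT3, a p53 target, differed by -1.08 at its brightest probe but by 1.01 at its second, so its direction depends on the probe. Further genes of the 15 largest decreases were SNAPIN (-2.02), DSCC1 (-1.98), TMTC3 (-1.94), SNW1 (-1.82), C1GALT1C1 (-1.80, with 0.30 at its other probe), AHSA2P (-1.78) and MRPL19 (-1.77), which have no common role in the lists used here.

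TATA words were unevenly spread over these genes. TATAAA was present in 14 of 75 promoters of genes called higher (18.7%), in 0 of 116 of genes called lower (0.0%) and in 1.82% of those of tested genes that were not called. For TGACTCA the shares were 9.33%, 4.31% and 2.33%. The genes called higher include those that passed the filter only through the miR-4728-3p controls. Of these, SALL3 and KRTDAP hold TATAAA, and KRTDAP also holds TGACTCA. Only 1 gene called lower was above the limit in no miR-4728-3p control. Genes above the limit in no array held TATAAA in 7.75% of promoters. The shares of the higher and lower genes are therefore not like for like. The TATAAA words of the higher genes CCN2, CXCL8, ADM, HSPA1A and SPRR3, and the AP-1 words of SPRR1A and KRTDAP, are shown in capitals because these genes are described above. ADM, the secreted peptide adrenomedullin, was higher by 1.27.
CCN2, chr6:131951387-131951416, minus strand: ccgcccggagcgTATAAAagcctcgggccg
CXCL8, chr4:73740526-73740555, plus strand: gtagggtgatgaTATAAAaagccaccggag
ADM, chr11:10305034-10305063, plus strand: cacccgtgcgctTATAAAgcacaggaacca
HSPA1A, chr6:31815501-31815530, plus strand: tccgtgacgactTATAAAagcccaggggca
SPRR3, chr1:153001708-153001737, plus strand: gctcattttctaTATAAAtaccagctaaca
SPRR1A, chr1:152983961-152983990, plus strand: aggatggtagtgTGAGTCAtgtgtgacagg
KRTDAP, chr19:35490529-35490558, minus strand: aagatctgggggTGAGTCAgtggggtgggg
The last pair reads TGAGTCA, the reverse complement of TGACTCA. All of the TATAAA words shown begin between -32 and -27.

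Within a set, a few genes varied far more than the rest. Among miR-4728-3p controls the largest SD was that of NCKAP1, a regulator of actin branching, at 0.59, with percentiles of 85.08, 86.75, 85.24, 88.26, 92.24 and 92.69. Replicates 5 and 6 were the high ones. It was followed by LBR, UBA3, TVP23C, AP1G1, STT3A, RPL7, ISG15, LSM3 and PTP4A1. The interferon-induced ISG15 had percentiles of 87.84, 79.16, 80.04, 74.36, 80.44 and 80.70 in miR-4728-3p controls, against 73.90, 74.55, 76.05 and 76.87 in miR-1 controls, and replicate 1 of the miR-4728-3p controls, the highest for ISG15, was also the highest for MX1 and OAS2. Among miR-1 controls the largest SD was that of NBPF9, at 0.70, followed by CAPZA1, TUBA3D, PPIB, ANP32A, SNRPE, PTMA, KLF5, GDF15 and NBPF10. NBPF9 and NBPF10 belong to a family of near-identical genes whose probes may not tell its members apart.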

How the data were processed

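Probe intensities of 20 bead arrays were deposited, of which the 10 control arrays were described and the 10 mimic arrays were used for 1 comparison. According to the methods, the authors normalized the deposited intensities on the BASE server. Background and normalization steps are not given in the sources used here. The deposited intensities are linear, with a median of 121.83 in each miR-4728-3p control and of 110.65 to 110.69 in miR-1 controls. Unnormalized medians were 101 to 135 in miR-4728-3p controls and 92 to 114 in miR-1 controls. The sample labels name version 3 of the array for all samples. The miR-1 table has the 47323 probes of version 4, as the methods say, and the other has 48803. The number of arrays limits the precision.

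The 39426 shared probes were ranked in each array. Of these, 27545 have 1 gene name in the platform annotation, updated with GRCh38.p14. Probes whose mean rank exceeded the mean limit were fitted with limma 3.58.1 (lmFit and eBayes, R 4.3.3) on the rank-matched log2 values, without a replicate block, with Benjamini-Hochberg adjustment over 13756 probes. Arrays of this comparison were also simulated. Of probes changed on the log2 scale, 100 of 100 at 1.5 and 100 of 100 at 2.5 were recovered, with 0 false calls. Both sizes lie above the minimum difference of 1. They are also large against the median SD of a gene, 0.149 among miR-4728-3p controls and 0.0984 among miR-1 controls. These counts therefore apply to the simulated arrays alone. Recovery of smaller differences was not tested, and neither was a shift between array versions or experiments. Tables and figures were made with pandas 2.3.3, scipy 1.17.1 and matplotlib 3.10.9 in Python 3.11.15.

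The 50 gene lists and the rules for named genes (the 25 brightest genes, the brightest and dimmest members of each list with any called member, the 15 largest differences in each direction, the 10 largest SDs per set, the genes of the study and of chromosome 9p21, and the widest gaps between probes) were chosen with earlier results of these data known. Other members named were chosen after their values were seen. Of 1022 list symbols, 78 were not analysed here. Promoters came from RefSeq. Alternatives were ranks before normalization, normexp, normal scores, other filters, limits and limma settings, a replicate block, gene means, and leaving out each array.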

Additional observations from a re-analysis of the deposited data

Results flagged for a closer look

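In 136 sets of values checked (118 of shown genes, 18 of array measures), 7 held an array whose gap to the nearest other was large against the whole range of its set, where chance alone flags about 1 in 20. No array measure was among them. In miR-4728-3p controls, MT2A had a low value of 14.63 in replicate 6 (the others were 14.91 to 15.02), GAPDH of 13.98 in replicate 5 (14.07 to 14.09), ERBB2 of 8.76 in replicate 3 (8.94 to 9.04) and IL18 of 13.13 in replicate 1 (13.32 to 13.42), and COL1A1 had a high value of 6.94 in replicate 4 (6.69 to 6.78), all as rank-matched log2. In miR-1 controls, EPCAM had a low value of 11.46 in replicate 1 (11.62 to 11.65) and S100A7 of 7.34 in replicate 3 (7.76 to 7.80). The causes were not tested.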

How the results depend on the processing

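The numbers called higher (146) and lower (190) in miR-4728-3p controls stayed within 1.5 times under ranks before normalization, normexp, both filters, trend and robust, array weights, gene means and an adjusted p of 0.01. Normal scores with a minimum of 0.5 gave 80 higher and 59 lower, of which 42 and 42 were called as reported. No minimum difference gave 2770 and 2217. Leaving out each array in turn gave 142 to 156 higher and 186 to 200 lower. The replicate number as a block gave 151 and 205. Same-numbered arrays of the sets had correlations of their deviations of -0.081 to 0.066, so the numbers do not pair the arrays. Chosen after seeing the data, leaving out genes whose other tested probe went the opposite way gave 139 and 176.

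With the mean over probes, ZMAT3 reversed to 0.168. Of 86 named called genes, 47 fell short of the call with normal scores, 15 with gene means and 8 with the block. A limit from globin, crystallin, retina, liver, pancreas and gut probes gave a median of 8579 probes in miR-4728-3p controls and 10202 in miR-1 controls. Leaving out each array gave medians of 15369 to 15682 in miR-4728-3p controls and 16285 to 16815 in miR-1 controls. Of the 25 brightest genes, 24 to 25 stayed when an array was left out, and ranking all probes of each version replaced ANXA2 with F2R. The median rank correlation between sets was 0.922 over probes above the limit, against 0.768. Without genes with a mimic effect, 87 higher genes kept their sign in the mimic arrays, which that selection largely fixed in advance. Signal close to background limits all values of dim genes, whose rank-matched log2 values span a narrow range.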
